A study of Mus musculus with 12 samples.

Results

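Translation efficiency (TE) is the ribosome footprint level of an mRNA divided by its RNA level, and its change from PBS to 6 h of cisplatin (Cis) was examined here in KPC cells. RPKM is reads scaled to library size and to length, that of the coding sequence for footprints and of the transcript for RNA-seq. Genes were taken when their mean scaled RPKM was at least 1 in both ribosome profiling and RNA-seq over the PBS and Cis 6 h libraries. This left 9315 of the 15803 genes listed in any library. KPC is a mouse pancreatic ductal adenocarcinoma line. It came from tumours of animals with Pdx1-Cre, which acts in the pancreas, and with the allele Trp53 LSL-R172H, so all groups share this origin. The PBS group, named untreated in the labels, had 2 footprint and 2 RNA-seq libraries, and so did the group given 20 μM Cis for 6 h. Values are RPKM as deposited, given in the order replicate 1 and replicate 2. The 4 libraries of a 21 h Cis group entered only the scaling and the estimate of the spread. The study's methods give PBS for either duration of treatment, and the labels do not say which one these PBS libraries had. Nothing says that libraries of a group came from separate cultures, so p-values measure only the spread between these libraries.

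Ribosome profiling reads the short mRNA pieces that a translating ribosome protects from nuclease, so footprints on a coding sequence follow both how much of the mRNA there is and how densely ribosomes occupy it. Dividing by RNA-seq leaves ribosome density per mRNA. Cisplatin crosslinks DNA, and cells can meet such damage at the level of translation through kinases that phosphorylate eIF2α, through mTOR, whose targets include the ribosomal protein mRNAs, and through mRNA-binding proteins. A change in TE does not separate faster initiation from slower elongation, since both put more ribosomes on an mRNA.

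Depth set the precision. The 4 footprint libraries held 3375480 to 5204127 reads and the 4 RNA-seq libraries 1985344 to 2901692. Between 53.8% and 56.6% of the RNA-seq reads fell on only 3 transcripts (those of Lars2, Tmem38b and Mettl26), so 862476 to 1341584 reads per library covered all other genes. Of the 8 ductal epithelial markers all were listed, with Krt8, Krt18 and Krt19 at mean footprint levels of 4831, 1669 and 2735 RPKM, but Epcam and Muc1 were near the floor at 1.04 and 0.482 RPKM. The summed footprint level of the epithelial list was 9113 to 9795 RPKM with PBS and 9313 to 9372 RPKM at 6 h. Footprints on leukocyte markers summed to 2.07 to 2.35 RPKM with PBS and 1.73 to 2.31 RPKM at 6 h, with 5 of the 7 listed ones without an RNA-seq read, and those on endothelial markers to 0.0228 to 0.117 and 0 to 0.666 RPKM. Fibroblast markers summed to 19.7 to 20.7 and 15.5 to 25.2 RPKM, mostly Acta2 and Col3a1. Their part in the results was not tested.

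No gene passed the test for a TE change at 6 h. In the interaction of assay and treatment (limma, adjusted p under 0.05) 0 of 9315 genes were called, 0%. At an unadjusted p under 0.05 there were 333 genes with a higher TE, 3.57% of those tested, and 374 with a lower TE, 4.02%. Without scaling of the libraries the split was 525 higher and 217 lower, so the balance between the directions rests on the scaling. Counts of higher and lower TE in the gene lists are at this unadjusted limit and read against these shares. At the wider limit of an adjusted p under 0.1 the count was 3 genes, 0.0322%, all lower. That count depended on the settings. The lowest adjusted p was 0.192 with only the 8 PBS and 6 h libraries, so without the 21 h libraries no gene was under 0.1. Nor was any with no trend (0.155), no filter (0.149) or TE per replicate number (0.167). With the other alternatives that kept all libraries the lowest adjusted p stayed under 0.1. With limma voom, which weights each value by its depth and was run on read numbers worked back from RPKM, there were 4 genes with a higher and 10 with a lower TE at an adjusted p under 0.05.

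Scaling within each assay sets the middle of the distribution near 0, and a change shared by all mRNAs cannot be seen in RPKM. After scaling the median TE change was -0.0082 on the log2 scale (0.069 without it), with quartiles of -0.21 and 0.21. Above 0 were 4556 genes (48.9%). The median standard error (SE) was 0.28. For 6068 genes (65.1%) the 95% interval of the TE change lay within -1 and 1. In the 1865 genes with fewest reads the interval reached a median of 0.95 to either side of the estimate, and in the 1858 with most reads 0.36.

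The spread between libraries of a group was nearly as wide as the change between groups. With TE taken from footprint and RNA-seq libraries of the same number, the interquartile range over all tested genes was 0.49 between the PBS libraries and 0.52 between the Cis 6 h libraries, against 0.54 and 0.55 from PBS to 6 h. Among the 2414 genes with at least 100 reads in both assays it was 0.30 and 0.28 within the groups and 0.34 and 0.34 between them. Footprint and RNA changes went together across genes (Pearson r = 0.40, Spearman rho = 0.38, 9315 genes that are not independent replicates), and the plot of footprint against RNA change shows the cloud along the diagonal where TE is unchanged.

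**Figure D1:**
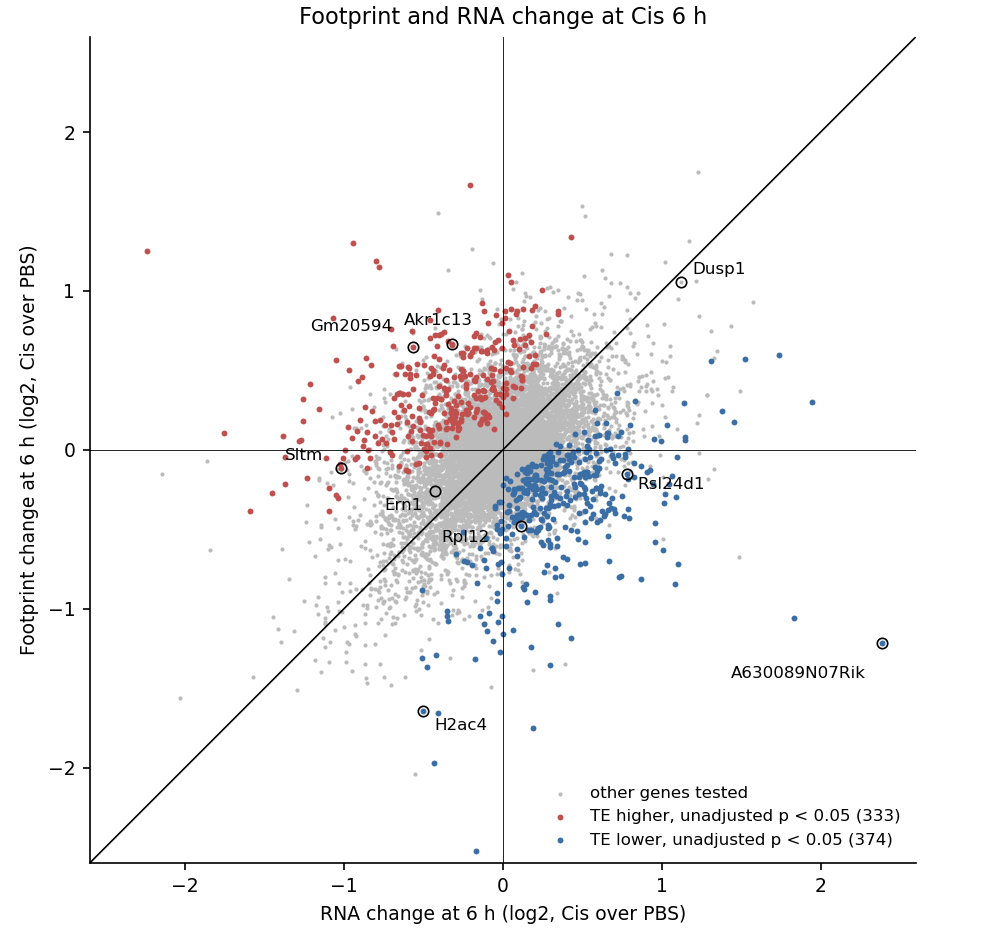
Footprint change (y axis) against RNA change (x axis) from PBS to Cis 6 h, both log2, for each of the 9315 genes tested. The diagonal marks a TE change of 0, the 333 red points above it have a higher TE and the 374 blue points below it a lower TE at an unadjusted p under 0.05, none of them past the adjusted threshold, and the circled genes are described in the text.

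The 3 genes at an adjusted p under 0.1 differed in which assay moved. H2ac4 encodes a replication-dependent histone H2A, and nearly identical H2A copies share its reads. Footprints on H2ac4 stood at 1004 and 809 RPKM in the PBS libraries and at 312 and 272 RPKM at Cis 6 h, and its RNA at 50.7 and 46.6 RPKM and then 35.1 and 30.2 RPKM. Both assays were lower in each 6 h library than in each PBS library, footprints by far the more. The footprint change was -1.64 (adjusted p = 0.000135), the RNA change -0.50 (adjusted p = 0.0921) and the TE change -1.14 (SE 0.17, adjusted p = 0.0938). Its RNA rested on 59, 64, 33 and 33 reads, the last 2 at 6 h.

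Rsl24d1, an assembly factor of the large ribosomal subunit, showed the opposite make-up. Rsl24d1 had footprint values of 163 and 166 RPKM with PBS and 142 and 158 RPKM at 6 h, beside RNA values of 23.8 and 23.1 RPKM with PBS and 40.5 and 36.998 RPKM at 6 h. RNA was higher in both 6 h libraries while the footprint values lay close together and just below those of PBS. The model called 21 RNA changes upward (0.225%) and 15 downward (0.161%), and 0 remained when RNA had a model of its own, which holds for every RNA call given here. The RNA change was 0.78 (adjusted p = 0.0176), the footprint change -0.15 and the TE change -0.93 (SE 0.14, adjusted p = 0.0938). The third, the RIKEN gene A630089N07Rik, was near the floor of RNA-seq, with 0, 0, 2 and 4 RNA reads beside 18, 28, 8 and 7 footprint reads. Its fitted TE change of -3.61 (SE 0.47, adjusted p = 0.0555) is no bound, since it depends on the pseudocount (-5.74 with 0.1 and -2.80 with 1 in place of 0.5).

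Among genes with a mean of at least 20 reads per library in each assay, the 12 with the lowest p and a higher TE had TE changes of 0.52 to 1.21, with adjusted p of 0.104 to 0.259. In 9 of them footprints were higher and RNA lower in each 6 h library than in each PBS library. In the deposited RPKM 4.33% of all genes tested had this pattern, which the choice by p favours. Deposited 6 h RNA sits low, as the scaling divides it by 0.959 and 0.963, against 0.997 and 1.02 for PBS. This raises the share, and Bola2, with RNA of 13.15 and 14.2 RPKM with PBS and 13.13 and 11.3 RPKM at 6 h, overlaps once scaled. Akr1c13, an aldo-keto reductase, had the lowest p. Footprints on Akr1c13 stood at 79.1 and 69.1 RPKM in the PBS libraries and at 110.4 and 128 RPKM at Cis 6 h, and its RNA at 22.2 and 21.8 RPKM and then 15.96 and 17.5 RPKM. Neither assay overlapped between the groups, footprints being higher and RNA lower at 6 h, and the TE change was 0.99 (SE 0.16, adjusted p = 0.104). In the model of both assays its footprint change of 0.67 passed (adjusted p = 0.0193) and its RNA change of -0.32 did not (adjusted p = 0.192). Gm20594, a predicted gene, had the highest value of the 12, 1.21 (SE 0.21, adjusted p = 0.104), and held far more RNA than footprints, with 1364 to 3193 RNA reads and 162 to 253 footprint reads per library.

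Litaf is a late endosomal membrane protein that p53 can induce, Atp6v0c the proton-pore subunit of the vacuolar ATPase, and Rab11a the GTPase of recycling endosomes. Litaf had footprint values of 253 and 249 RPKM with PBS and 443 and 394 RPKM at 6 h, beside RNA values of 28.7 and 34.4 RPKM with PBS and 25.9 and 26.7 RPKM at 6 h. The groups did not overlap in either assay. The TE change was 0.90 (SE 0.17, adjusted p = 0.2) for Litaf, 0.56 (SE 0.11, adjusted p = 0.205) for Atp6v0c and 0.71 (SE 0.16, adjusted p = 0.259) for Rab11a. In Atp6v0c the footprints made up the difference, at 0.51 against -0.056 for RNA, and in Rab11a the parts were 0.32 and -0.39.

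Bola2, which works with a glutaredoxin in iron-sulfur cluster handling, followed footprints, at 0.80 (adjusted p = 0.0134) against -0.092 for RNA. Serf2, a small factor linked to protein aggregation, did so too, with 0.55 (adjusted p = 0.0125) against 0.032. Sltm, a nuclear RNA-binding protein of the SAFB family, was the reverse case. Footprints on Sltm stood at 42.2 and 46.1 RPKM in the PBS libraries and at 39.3 and 42.9 RPKM at Cis 6 h, and its RNA at 12.98 and 14.01 RPKM and then 5.87 and 6.34 RPKM. Its RNA was lower in both 6 h libraries (change -1.02, adjusted p = 0.0176, not called when RNA had a model of its own) while footprints overlapped between the groups (change -0.12), which gave a TE change of 0.90 (SE 0.19, adjusted p = 0.209). Rsrc2, an arginine- and serine-rich coiled-coil protein, and Pvr, the ligand CD155 of the immune receptors TIGIT and CD226, had TE changes of 1.02 (SE 0.20) and 0.95 (SE 0.20), with footprint changes of 0.47 and 0.38 and RNA changes of -0.55 and -0.57. Cnp, a cyclic nucleotide phosphodiesterase, stood at 0.84 (SE 0.18).

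The 12 genes with the lowest p and a lower TE ranged from -1.68 to -0.60, with adjusted p of 0.0938 to 0.259. Beside H2ac4 and Rsl24d1 they held 2 ribosomal proteins (Rpl12 and Rpl36a), 2 mitochondrial ribosomal proteins (Mrpl22 and Mrps10) and a further histone (H4c2). For Mrps10, a small-subunit protein of the mitochondrial ribosome, footprints were the part that differed. Mrps10 had footprint values of 289 and 237 RPKM with PBS and 123 and 124 RPKM at 6 h, beside RNA values of 21.9 and 24.04 RPKM with PBS and 23.3 and 17.4 RPKM at 6 h. Footprints at 6 h were under the PBS values and RNA overlapped. Its footprint change was -1.09 (adjusted p = 0.0127) and its TE change -0.98 (SE 0.22, adjusted p = 0.259). For Mrpl22, of the large subunit of that ribosome, and for Cenpn, a kinetochore protein that binds CENP-A chromatin, it was the RNA, at 0.91 (adjusted p = 0.0337) and 1.07 (adjusted p = 0.0355), while footprints stood at -0.14 and -0.16. The TE changes were -1.05 (SE 0.21, adjusted p = 0.209) and -1.23 (SE 0.26, adjusted p = 0.209), on 17 to 40 RNA reads per library.

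Rnf41, a ubiquitin ligase, had the most negative value of the group, -1.68 (SE 0.33, adjusted p = 0.2), from footprints at -0.81 and RNA at 0.87, on 18 to 42 reads per library in either assay. Psmd10, the proteasome assembly chaperone gankyrin, stood at -0.97 (SE 0.19, adjusted p = 0.2), with the parts at -0.45 and 0.52. Ndufs4, a subunit of respiratory complex I, was at -0.88 (SE 0.20), and Cdc26, a subunit of the anaphase-promoting complex, at -0.85 (SE 0.19). In 6 of the 12, namely Rnf41, Rsl24d1, Psmd10, Ndufs4, Cdc26 and Rpl36a, each 6 h library was under both PBS libraries in footprints and above both in RNA. That held for 1.85% of all genes tested in the deposited RPKM, where 6 h RNA sits low, which reduces this share. The plot of these genes shows the pattern, in many genes a footprint mark on one side of 0 and an RNA mark on the other. The choice favours such genes, since TE is the difference of both parts.

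**Figure D2:**
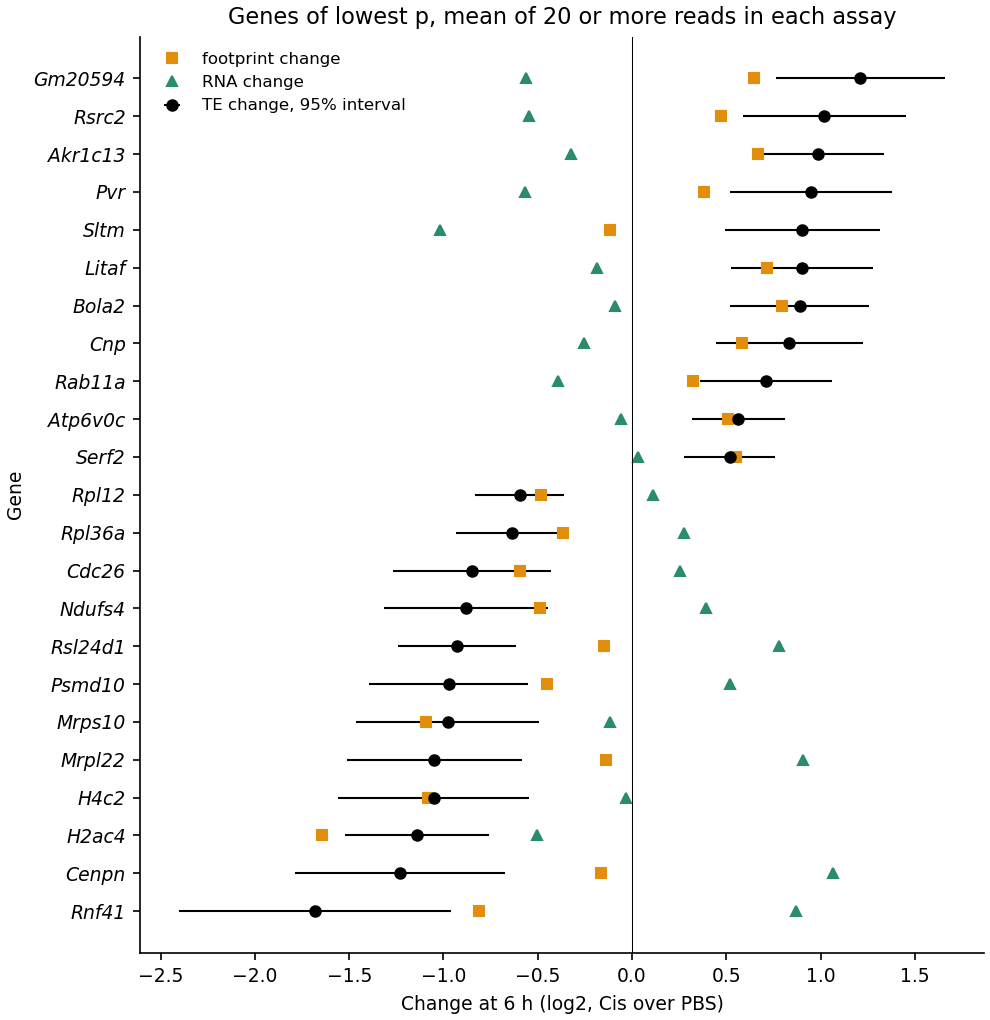
TE change from PBS to Cis 6 h with its 95% interval (black), footprint change (orange squares) and RNA change (green triangles), all log2 on the x axis, for the 12 genes with the lowest p in each direction among those with a mean of at least 20 reads per library in each assay, less 1 with a higher TE that is not shown. None passed an adjusted p of 0.05, and in Serf2, Atp6v0c, H4c2 and Mrps10 the RNA mark lies close to 0 while in Sltm, Mrpl22, Rsl24d1 and Cenpn the footprint mark does.

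Ribosomal protein mRNAs are long-lived, abundant and controlled by mTOR through a 5′ terminal oligopyrimidine (TOP) tract, a C at the very first base followed by a run of C and T. Of the 76 tested, 16 had a lower and 4 a higher TE at an unadjusted p under 0.05, that is 10 and 2 of the 45 of the large subunit and 6 and 2 of the 31 of the small subunit. In the 1863 genes of all kinds with most footprint reads 6.17% were lower and 4.83% higher. Their median SE of 0.165 was above the 0.117 of the 76, so equal changes pass this limit less often there. The counts depended on the scaling. Without it there were 9 lower and 9 higher, with quantile normalization 13 and 4, and with voom 17 and 6. With any 1 of the 8 libraries left out there were 10 to 18 lower and 2 to 5 higher. The median over the 76 was -0.016 (0.068 without scaling) and 37 were above 0, close to the 48.9% of all genes, the share being 48.7% here.

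The start-site windows of the 3 ribosomal protein genes with the lowest p in each direction, among those with an entry in the table of start sites, are shown, since the TOP tract is what the family is known for. Each runs from 10 bases before the start site annotated by RefSeq (GRCm38.p6) to 20 bases after it, 5′ to 3′ on the gene's strand. Capitals mark the longest run of a C and at least 4 further C or T bases that begins within 10 bases of that start.
Rpl12, chr2:32961702-32961731, plus strand: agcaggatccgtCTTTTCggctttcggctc
Rpl36a, chrX:134585644-134585673, plus strand: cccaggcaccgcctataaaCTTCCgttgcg
Rpl27, chr11:101442235-101442264, plus strand: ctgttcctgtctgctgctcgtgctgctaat
Rpl19, chr11:98026700-98026729, plus strand: aaacgCCCTCactgcgcatgtgcgccgcgg
Rpl35, chr2:39005112-39005141, minus strand: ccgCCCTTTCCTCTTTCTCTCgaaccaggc
Fau, chr19:6057937-6057966, plus strand: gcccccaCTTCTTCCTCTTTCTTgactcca
Rpl12, Rpl36a and Rpl27 had a lower TE and Rpl19, Rpl35 and Fau a higher TE. The longest runs, of 18 and 16 bases, belonged to Rpl35 and Fau. No run was found in the window of Rpl27. Of the 56 ribosomal protein genes tested that have an entry in the table of start sites, 34 (60.7%) held such a run. The share was 36.8% of the 7569 genes of all kinds tested with an entry, and 34.4% of all 27025 genes in the table. It was present for 9 of 12 genes with a lower TE, 22 of 41 with neither and 3 of 3 with a higher TE. A match in the annotated window is a description of these letters and not a measured transcription start.

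Rpl12 had footprint values of 848 and 846 RPKM with PBS and 595 and 629 RPKM at 6 h, beside RNA values of 777 and 787 RPKM with PBS and 777 and 838 RPKM at 6 h. Both 6 h footprint libraries of Rpl12, a protein at the base of the ribosomal stalk, were under both PBS libraries, and its RNA overlapped. The footprint change was -0.48 (adjusted p = 0.0163), the RNA change 0.11 and the TE change -0.60 (SE 0.11, adjusted p = 0.156). Rps20, a small-subunit protein, was alike. Footprints on Rps20 stood at 1062 and 1185 RPKM in the PBS libraries and at 817 and 888 RPKM at Cis 6 h, and its RNA at 114 and 101 RPKM and then 117 and 111 RPKM. Its footprint change was -0.41 (adjusted p = 0.0477) and its TE change -0.56 (SE 0.13, adjusted p = 0.259). Rpl36a stood at -0.64 (SE 0.14, adjusted p = 0.22). Of the stalk proteins themselves Rplp1 and Rplp0 had TE changes of -0.41 (SE 0.11) and -0.34 (SE 0.14), and Rplp2 was at 0.034 (SE 0.20).

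On the other side, Rpl19 rose in footprints while its RNA moved little. Rpl19 had footprint values of 4244 and 4775 RPKM with PBS and 5765 and 5816 RPKM at 6 h, beside RNA values of 1173 and 1164 RPKM with PBS and 1139 and 1123 RPKM at 6 h. Its footprint change of 0.35 passed the test (adjusted p = 0.0348), and its TE change was 0.33 (SE 0.10, adjusted p = 0.384). Rps14, Rpl35 and Fau stood at 0.40 (SE 0.18), 0.83 (SE 0.30) and 0.32 (SE 0.13), where Rpl35 rested on 50 to 92 footprint reads per library. The quartiles over the 76 were -0.22 and 0.097. Ribosomal protein genes have many processed pseudogenes of near-identical sequence, and reads shared with them could not be told apart here.

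**Figure D3:**
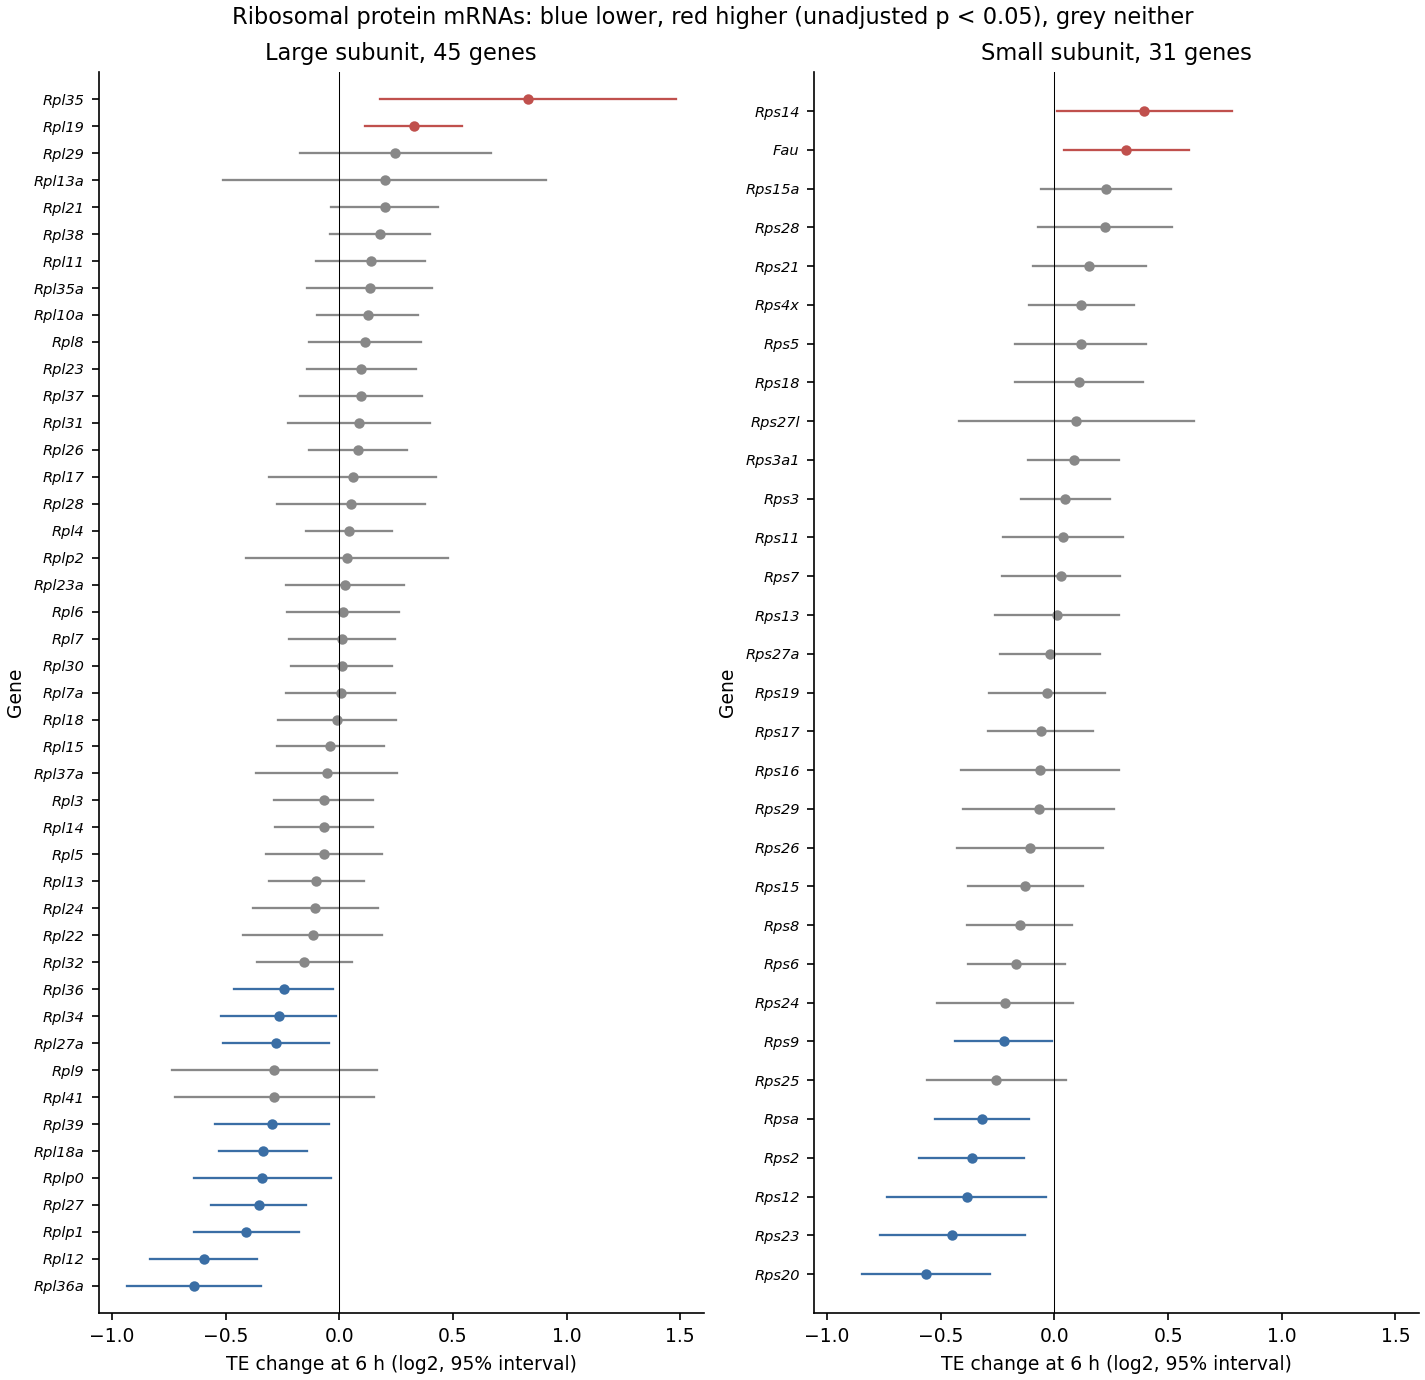
TE change from PBS to Cis 6 h (log2, x axis) with its 95% interval for each ribosomal protein gene tested, 45 of the large subunit (left) and 31 of the small subunit (right), ordered by value. Blue marks the 16 genes with a lower TE and red the 4 with a higher TE at an unadjusted p under 0.05, counts that become 9 and 9 without scaling of the libraries, and the remaining intervals include 0.

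Other mRNAs with a TOP tract and the translation machinery gave no common shift. Of 13 further TOP mRNAs 1 had a higher TE, Npm1, a nucleolar chaperone of ribosome assembly, and 0 a lower one. Footprints on Npm1 stood at 4532 and 4577 RPKM in the PBS libraries and at 4404 and 4584 RPKM at Cis 6 h, and its RNA at 533 and 583 RPKM and then 402 and 405 RPKM. RNA of Npm1 was lower in both 6 h libraries (change -0.40, adjusted p = 0.0309) and its footprints overlapped, which gave 0.36 (SE 0.089, adjusted p = 0.284). Eef1a1, the factor that brings aminoacyl-tRNA to the ribosome, had 0.23 (SE 0.12), and Eef2, the translocase, -0.036 (SE 0.12). Among 8 elongation factor genes 1 was lower, Eef1e1 (-0.73, SE 0.28), a member of the aminoacyl-tRNA synthetase complex. Of the 40 initiation factor genes 4 were higher and 4 lower, and their median was -0.095.

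The lower ones included Eif2s1, the α subunit of eIF2 that stress kinases phosphorylate, at -0.43 (SE 0.13) with a footprint change of -0.47 (adjusted p = 0.0323), and Eif2b1, a regulatory subunit of eIF2B, at -0.53 (SE 0.16), while Eif2s2, the β subunit, was at 0.53 (SE 0.16). Eif4h, a cofactor of the helicase eIF4A, stood at -0.43 (SE 0.10). Among 20 kinases and brakes of global translation 2 were higher, Ddit4, an inhibitor of mTORC1, at 0.56 (SE 0.21), and Mknk2, a kinase of eIF4E, at 0.46 (SE 0.20), with footprint changes of 0.72 and 0.73 (adjusted p = 0.0362 and 0.0323) and RNA changes of 0.16 and 0.27. Rptor, the scaffold of mTORC1, was at -0.68 (SE 0.32). Of 33 aminoacyl-tRNA synthetase genes 2 were higher and 1 lower, and of 85 ribosome biogenesis genes 4 and 3.

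Regulatory upstream open reading frames (uORFs) let some mRNAs be translated better when eIF2α is phosphorylated. The 14 such mRNAs tested had a median TE change of -0.066 (0.016 without scaling), 4 were above 0, and 1 had an unadjusted p under 0.05, Zfp36l1, an mRNA decay factor, at 0.60 (SE 0.24). Atf4, the transcription factor of the integrated stress response, is the best known of them. Footprints on Atf4 stood at 82.95 and 93.9 RPKM in the PBS libraries and at 96.1 and 98.2 RPKM at Cis 6 h, and its RNA at 67.1 and 71.1 RPKM and then 79.4 and 95.2 RPKM. Both assays of Atf4 were higher at 6 h without overlap, RNA the more, and its TE change was -0.27 (SE 0.16, adjusted p = 0.76) with a 95% interval of -0.62 to 0.067. Ddit3, which encodes the stress factor CHOP, stood at 0.53 (SE 0.33) on 21 to 48 reads per library in either assay, and Gadd45g at 0.83 (SE 0.48). Of 23 genes that Atf4 is known to switch on 2 were higher (Ddit4, and Nupr1 at 0.45, SE 0.19) and 1 lower (Shmt2, the mitochondrial serine hydroxymethyltransferase, at -0.38, SE 0.17).

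The unfolded protein response (UPR) is sensed in the endoplasmic reticulum by IRE1α (Ern1), PERK (Eif2ak3) and ATF6. Of the 10 genes of this list 0 had an unadjusted p under 0.05, 2 were above 0 (4 without scaling), and the median was -0.087 (-0.015 without scaling). Ern1 had footprint values of 10.4 and 8.35 RPKM with PBS and 8.80 and 6.87 RPKM at 6 h, beside RNA values of 4.04 and 4.81 RPKM with PBS and 2.68 and 3.37 RPKM at 6 h. Footprints on Ern1 overlapped between the groups and its RNA was lower in both 6 h libraries, with a footprint change of -0.26, an RNA change of -0.42 and a TE change of 0.16 (SE 0.30, adjusted p = 0.938). The 95% interval ran from -0.50 to 0.82, and the estimate was -0.0023 without Cis 6 h footprint replicate 1. The other sensors stood at -0.58 (SE 0.36) for Eif2ak3 and -0.43 (SE 0.25) for Atf6. Footprints on Atf6 stood at 27.5 and 28.5 RPKM in the PBS libraries and at 17.7 and 17.2 RPKM at Cis 6 h, and its RNA at 4.93 and 5.71 RPKM and then 3.89 and 4.42 RPKM.

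Atf6 footprints at 6 h lay under both PBS values, as did its RNA, and the footprint change was -0.68 (adjusted p = 0.0747). The proteases that cut ATF6, Mbtps1 and Mbtps2, stood at -0.094 (SE 0.21) and -0.43 (SE 0.28), Atf6b at 0.35 (SE 0.25), and the related factors Creb3 and Creb3l2 at -0.39 (SE 0.26) and -0.079 (SE 0.37). Xbp1, whose mRNA IRE1α splices, was at -0.031 (SE 0.23) and Hspa5, the chaperone BiP, at -0.076 (SE 0.13), with a 95% interval of -0.37 to 0.22. Among 32 genes of ER chaperones and ER-associated degradation 1 was higher, Edem3 (0.96, SE 0.34), and 3 lower, Pdia3 (-0.40, SE 0.11), Vcp (-0.27, SE 0.11) and Pdia5 (-0.71, SE 0.32).

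In the cGAS-STING pathway, which senses cytosolic DNA, 10 genes could be tested and 1 was lower at an unadjusted p under 0.05, Ifi204, an interferon-inducible DNA sensor. Footprints on Ifi204 stood at 49.8 and 50.7 RPKM in the PBS libraries and at 33.9 and 28.2 RPKM at Cis 6 h, and its RNA at 14.2 and 13.1 RPKM and then 10.5 and 15.7 RPKM. Footprints of Ifi204 were lower at 6 h without overlap and RNA overlapped, and the TE change was -0.69 (SE 0.27, adjusted p = 0.585). Cgas, which makes the second messenger, stood at -0.028 (SE 0.28), with footprints (0.45) and RNA (0.48) higher by like amounts. The kinases Tbk1 and Ikbke were at 0.023 (SE 0.28) and -0.42 (SE 0.45), the transcription factors Irf3 and Irf7 at 0.12 (SE 0.24) and 0.18 (SE 0.15), and the nuclease Trex1 at 0.14 (SE 0.53). Stim1, Tollip and Zdhhc3, which bind or modify STING, stood at -0.36 (SE 0.36), -0.033 (SE 0.23) and -0.11 (SE 0.43). Sting1 itself fell short of the limit for testing, with a mean of 13.3 footprint reads and 1.25 RNA reads per library, as did Ifnb1 with 2.25 and 0.25.

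Downstream of these sensors the values scattered as well. The NF-kB list had 1 higher and 4 lower of 33 genes, but 1 and 0 without scaling, 1 and 2 with voom, and 1 to 5 lower with any 1 library left out. The higher one was Nfkbib, an inhibitor of NF-kB (0.79, SE 0.27), and the lower ones included Ikbkg, the scaffold NEMO (-0.54, SE 0.22), the chemokine Ccl2 (-0.31, SE 0.13) and Ptgs2, the cyclooxygenase COX-2 (-0.36, SE 0.14). For Ptgs2 RNA stood higher (0.72) than footprints did (0.36). Of 49 interferon-stimulated genes 1 was higher, Mx1 (0.80, SE 0.35), and 1 lower, Ifitm2 (-0.32, SE 0.15). MHC class I presentation held 2 higher and 1 lower of 19 genes, B2m, the light chain, being at 0.19 (SE 0.086).

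Histone mRNAs of the replication-dependent clusters end in a stem-loop instead of a poly(A) tail and are made in S phase. The 54 genes tested (49 core and 5 linker H1 genes) had footprint changes below 0 in 49 and RNA changes below 0 in 48, with medians of -0.58 and -0.43 beside -0.010 and -0.0093 over all genes. Footprints passed the test in 13 of them, all downward, where 0.848% of all genes did, and RNA in 2, H2bc3 and H1f5, where 0.161% did. Neither RNA call remained when RNA had a model of its own. The TE counts were 0 higher and 13 lower, with a median of -0.087 (-0.28 to 0.049 with any 1 library left out), and changed to 1 and 8 without scaling, 0 and 7 with voom and 0 to 4 and 9 to 14 with any 1 library left out.

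By class, 6 of 13 H2A genes, 4 of 13 H4, 2 of 10 H3, 1 of 13 H2B and 0 of 5 H1 genes were among the 13. The lowest values were those of H2A genes, at -1.94 (SE 0.32) for H2ac6, -1.54 (SE 0.37) for H2ac7 and -1.45 (SE 0.43) for H2ac11. H2ac6 had footprints of 465, 267, 89 and 81 reads, PBS first, but RNA of 11, 11, 7 and 14 reads. The H4 gene H4c2 stood at -1.05 (SE 0.23, adjusted p = 0.259). H2bc3, with more reads, stood at -0.37 (SE 0.12, adjusted p = 0.475), where footprints (-0.88, adjusted p = 0.00139) and RNA (-0.51, adjusted p = 0.0355) both passed. H1f5, a linker histone, stood at -0.75 in footprints and -0.64 in RNA, and its TE change was -0.12 (SE 0.16). The median H2A gene rested on 10.8 RNA reads per library, near-identical copies share reads, and how far tail-less mRNAs were captured by each assay was not tested.

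**Figure D4:**
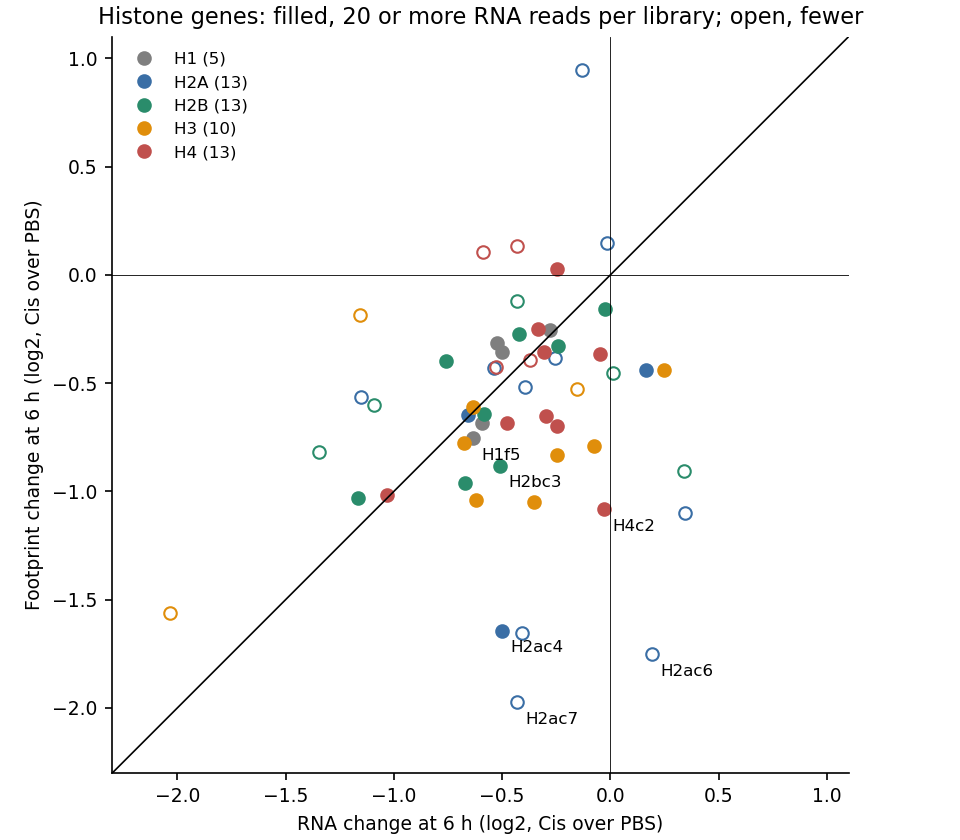
Footprint change (y axis) against RNA change (x axis) from PBS to Cis 6 h, both log2, for the 54 replication-dependent histone genes tested, coloured by class. Filled points have a mean of at least 20 RNA reads per library and open points fewer, most points lie below 0 on both axes, and the H2A genes H2ac6 and H2ac7 lie farthest below the diagonal of equal change.

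Mitochondrially encoded mRNAs are translated by mitochondrial ribosomes. Of the 10 tested 8 were below 0, the median was -0.22 (-0.14 without scaling) and 2 had a lower TE at an unadjusted p under 0.05 (0 without scaling), mt-Nd6 at -0.41 (SE 0.17) and mt-Co1, a catalytic subunit of cytochrome oxidase, at -0.34 (SE 0.13). Footprints on mt-Co1 stood at 5714 and 4551 RPKM in the PBS libraries and at 4095 and 4421 RPKM at Cis 6 h, and its RNA at 2737 and 2622 RPKM and then 2630.3 and 2720.2 RPKM. Footprints of mt-Co1 at 6 h lay under both PBS values, and RNA overlapped. mt-Atp6 went the other way, at 0.38 (SE 0.21). Leaving out 1 library moved the number of lower genes between 0 and 5. The nuclear genes of the respiratory chain and ATP synthase (86 tested) had 5 higher and 3 lower, and the 77 mitochondrial ribosomal proteins 3 and 6 (5 and 5 without scaling).

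Nuclear mRNA export had 2 higher and 5 lower of 25 genes, with 7 above 0 and a median of -0.10. Nxt1, the partner of the export receptor, stood at 0.77 (SE 0.19, adjusted p = 0.277), and the lower ones were Sarnp, Magoh and Thoc2, proteins of the complexes that prepare mRNA for export, at -0.68 (SE 0.18), -0.44 (SE 0.12) and -0.54 (SE 0.21), with Thoc7 (-0.48) and Alyref (-0.30) named after their values were seen. Without scaling the counts were 2 and 3, and with any 1 library left out 1 to 3 higher and 2 to 4 lower. Of 73 SR protein and hnRNP genes 3 were higher and 4 lower (5 and 1 without scaling). Hnrnpab and Hnrnpd, related RNA-binding proteins, stood in opposite directions. Hnrnpab had footprint values of 3755 and 4618 RPKM with PBS and 6498 and 6825 RPKM at 6 h, beside RNA values of 341 and 340.1 RPKM with PBS and 369 and 347 RPKM at 6 h. Footprints of Hnrnpab were higher in both 6 h libraries (change 0.66, adjusted p = 0.0134), and its TE change was 0.52 (SE 0.14, adjusted p = 0.338). Footprints on Hnrnpd stood at 690.5 and 702 RPKM in the PBS libraries and at 469 and 490.1 RPKM at Cis 6 h, and its RNA at 24.03 and 27.3 RPKM and then 23.7 and 25.8 RPKM. Those of Hnrnpd were lower in both (change -0.55, adjusted p = 0.0193), and its TE change was -0.57 (SE 0.13, adjusted p = 0.259).

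Both were among the 14 genes that the weighted voom fit called. Its 4 higher genes were Gm20594, Litaf, Hnrnpab and Npm1, and its 10 lower ones included A630089N07Rik, Rpl12, Rpl36a, Rps20, Hnrnpd, mt-Co1, the cohesin subunit Rad21, the actin crosslinker Flna, and Ahnak, a giant scaffold protein. Rad21, Flna and Ahnak were at -0.49 (SE 0.16), -0.72 (SE 0.20) and -0.68 (SE 0.22) in the unweighted fit. These genes were named after that fit was seen.

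Of 30 p53 target genes 1 was higher, Cdkn1a, the cell cycle inhibitor p21 (0.79, SE 0.29), and 2 were lower, Pmaip1, the pro-apoptotic NOXA (-0.88, SE 0.22), and Ddb2, a sensor of DNA lesions (-1.39, SE 0.54, on 1 to 6 RNA reads per library). The list's median footprint and RNA changes were 0.28 and 0.18 and its median TE change 0.12. Of 59 crosslink and excision repair genes 0 were higher and 4 lower, among them Ercc1, of the nuclease that cuts beside platinum adducts (-0.997, SE 0.25), Fancc (-1.53, SE 0.44) and Ddb2, these 3 on 1 to 14 RNA reads per library, and without scaling the counts were 2 and 2. Of 28 checkpoint genes 1 was lower, Mre11a, a nuclease at broken ends (-0.65, SE 0.21).

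Of 52 DNA replication genes 3 were higher and 3 lower, among them Orc1 at 0.56 (SE 0.22) and Orc6 at -0.55 (SE 0.17), both subunits of the origin recognition complex, and Rfc4, of the clamp loader, at -0.51 (SE 0.15). Pcna is the clamp itself. Pcna had footprint values of 1400.1 and 1326 RPKM with PBS and 1656 and 1728 RPKM at 6 h, beside RNA values of 123 and 123 RPKM with PBS and 153 and 149 RPKM at 6 h. Footprints (0.30, adjusted p = 0.0455) and RNA (0.36, adjusted p = 0.0462) both passed in the joint model, and TE stood at -0.066 (SE 0.092) with a 95% interval of -0.27 to 0.13. The 66 mitosis genes held 3 higher and 2 lower. Immediate early genes, which growth factors and stress switch on at once, had the highest median footprint change of the lists, 0.36, with RNA at 0.27 and TE at 0.04 over 35 genes. Dusp1, a phosphatase of stress kinases, was higher in both assays (1.05 and 1.12, adjusted p = 0.0323 and 0.0468), and its TE change was -0.068 (SE 0.29).

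Footprint changes were called in 67 genes upward (0.719%) and 79 downward (0.848%), and RNA changes in 21 upward (0.225%) and 15 downward (0.161%), by the same model and on the same genes. Each assay in a model of its own, an alternative chosen after seeing the data, called 303 genes for footprints (153 up, 150 down) and 0 for RNA, with 1080 genes at an unadjusted p under 0.05 for RNA. Of the 67 genes with higher footprints 60 had an RNA change of the same sign, and of the 79 with lower footprints 71 did. Median changes were 0.64 for footprints and 0.20 for RNA in the first set and -0.95 and -0.46 in the second. TE was higher in 36 of the 67 and lower in 37 of the 79 at an unadjusted p under 0.05, counts that the choice by footprints favours.

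In 8 genes both assays passed in the joint model, each gene in the same direction in both. That choice favours small TE changes, since TE is the difference of both parts. None of these 8 genes had a TE change beyond -0.37 or 0.30. They were Dusp1 and Pcna upward and H2bc3, H1f5, Fndc3b, Tns3, Magi3 and Cmip downward. The TE changes of the last 4 were -0.095 (SE 0.23), -0.035 (SE 0.20), 0.075 (SE 0.22) and 0.30 (SE 0.27). Footprints on Tns3 stood at 53.2 and 51.1 RPKM in the PBS libraries and at 29.02 and 28.3 RPKM at Cis 6 h, and its RNA at 21.6 and 21.999 RPKM and then 12.1 and 10.8 RPKM. Tns3 encodes the adhesion protein tensin-3, and both of its measures lay below PBS at 6 h without overlap. The 95% interval of its TE change was -0.46 to 0.39.

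Gene length separated the changes in both assays more than it separated TE. With genes ordered by the span of the gene in RefSeq (9265 of 9315 matched by symbol, lengths only) and cut into 5 groups of 1853, the median footprint change went from 0.11 in the shortest group (median span 4.49 kb) to -0.30 in the longest (106 kb), and the median RNA change from 0.071 to -0.24. The median TE change went from 0.029 to -0.068. Across genes Spearman's rho with span was -0.46 for footprints, -0.35 for RNA and -0.11 for TE. These are descriptions, since all genes of a library share its depth. At an unadjusted p under 0.05 the shortest group held 98 genes with a higher and 95 with a lower TE, and the longest 24 and 66. With coding length rho was -0.070, with 5′ UTR length -0.014 and with 3′ UTR length -0.0090.

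**Figure D5:**
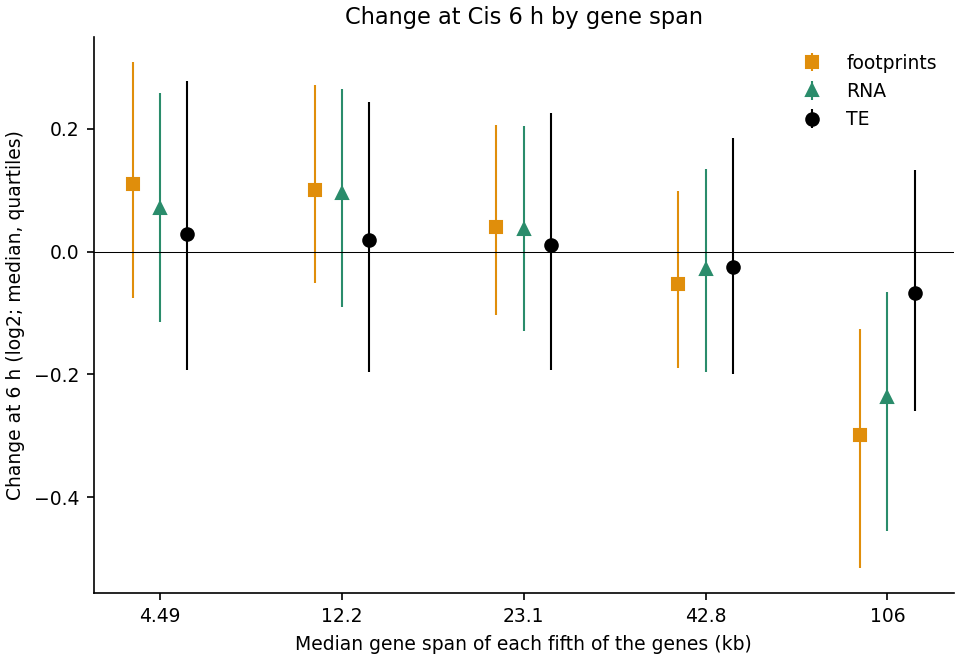
Median change from PBS to Cis 6 h (y axis, log2) of footprints, RNA and TE in 5 equal groups of the genes by gene span (x axis, median span in kb), with bars from the lower to the upper quartile. Footprints and RNA drop together in the longest group, to -0.30 and -0.24, while the TE median is at -0.068.

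Zinc finger genes of the Zfp series, most of them DNA-binding repressors on low-level mRNAs, had a median TE change of 0.12 with 107 of its genes above 0 (62.2%). At an unadjusted p under 0.05 there were 5 higher (2.91%) and 2 lower (1.16%), and 12 and 2 without scaling. Zfp617 (0.98, SE 0.23) and Zfp955a (1.36, SE 0.35) had the lowest p. Leaving out 1 library moved the median between 0.045 and 0.17. In the RAS-RAF-MEK-ERK cascade 2 of 30 genes were higher and 0 lower. Hras stood at 0.78 (SE 0.21), with footprints at 0.86 and RNA at 0.08, and the adaptor Grb2 at 0.41 (SE 0.18).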

How the data were processed

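Ribosome footprints and RNA-seq of KPC cells were read from per-transcript tables. The authors deposited RPKM values, normalized to length and library size, and the submitters' processing notes name cutadapt, STAR and GRCm39. Footprints were 25 to 35 nt, made with RNase I after cycloheximide at 200 μg/ml. No columns of unused samples were present (0). With coding length for footprints and transcript length for RNA-seq, RPKM steps gave back whole reads, within a tolerance of 0.01. These reads served for depth and for limma voom.

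RPKM values were scaled by median-of-ratios factors within each assay and logged as log2(RPKM + 0.5), so changes of low genes are understated. Genes with a mean of at least 1 RPKM in both assays entered 1 model with limma 3.58.1 (R 4.3.3, eBayes with trend, 2-sided, Benjamini-Hochberg over all genes tested) on all 12 libraries, and the TE change was its interaction of assay and treatment. All adjusted p-values without another name are from this fit. It gives the footprint and the RNA change of a gene the same SE (median 0.197 for each), which was not tested as an assumption. The fit was also run on simulated reads, drawn independently with the same spread in both assays and with changes in footprints only. These settings need not hold in the real libraries, so that run does not measure the error rates here. Named genes were those of the UPR and cGAS-STING lists, those at an adjusted p under 0.1, the 12 with the lowest p in each direction with at least 20 reads, and up to 4 per list. Members and lists were chosen with earlier results of these data known, so list counts use an unadjusted p under 0.05 as a description with no test. Start sites and spans came from RefSeq. Alternatives were the pseudocount, filter, scaling, trend, samples, block, voom, and leaving out each library. Some items are not reported here.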

Additional observations from a re-analysis of the deposited data

How the results depend on the processing

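At an adjusted p under 0.05 the counts were 0 higher and 0 lower also with a pseudocount of 1, no filter, a filter of 5 RPKM, quantile normalization, no trend, the PBS and 6 h libraries alone, and TE per replicate number, and leaving out each library in turn gave 0 to 0. There was 1 lower gene with a pseudocount of 0.1, without scaling and with RNA-seq rescaled without its 3 most abundant transcripts (A630089N07Rik in each), and 3 lower at an adjusted p under 0.1. With voom there were 4 higher and 10 lower, and the cause was not tested. With the replicate number as a block (replicate block) there was 1 lower gene, H2ac4. Correlations of same-numbered deviations ran from -0.037 to 0.040 and showed no pairing of libraries by number. They cannot settle whether any libraries were paired, since read depth was low for many genes. Each assay in a model of its own, chosen after seeing the data, called 153 genes higher and 150 lower for footprints, 134 of them shared with the 146 of the joint model, and 0 and 0 for RNA.

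The TE change of Ern1 was -0.0023 without Cis 6 h footprint replicate 1, and -0.0023 to 0.33 over all libraries left out. Of 515 values of 26 named genes under the alternatives 505 kept direction and side of the threshold, 9 passed it newly and 1 reversed. This tally was largely set in advance. Most of these genes were picked by low p in this fit, none passed its threshold, and some alternatives leave the estimate as it is. Of 1060 list values 954 stayed and 106 moved. Depth limits single genes, as the half-width of the 95% interval was 0.95 in the genes with fewest reads.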

Other observations

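Of 132 genes of vesicle coats and tethers 3 had a higher and 7 a lower TE at an unadjusted p under 0.05 (5 and 4 without scaling, and 1 to 7 and 3 to 7 with any 1 library left out), among them Trappc3 (-0.81, SE 0.21), of a tethering complex, and Vps4a (-0.69, SE 0.21), the ATPase that disassembles ESCRT filaments. Of 40 Rab GTPase genes 2 were higher and 1 lower, and of 26 genes of GPI anchor synthesis 1 was higher (Dpm3, 0.70, SE 0.23) and 0 lower. Autophagy held 2 lower of 32, Ambra1 (-1.20, SE 0.41) and Pik3c3 (-0.71, SE 0.30). The proteasome held 1 higher and 2 lower of 46, and the chaperonin CCT, whose 8 subunits assemble in equal numbers, 0 and 0, with TE changes from -0.16 to 0.17.

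Glycolysis had 2 higher of 16, Eno1 (0.33, SE 0.12) and Gapdh (0.39, SE 0.16), with footprint changes of 0.33 and 0.39. Cholesterol synthesis had 3 higher and 1 lower of 27, NRF2 target genes 1 and 1 of 30, selenoproteins 1 and 0 of 16, and amino acid transporters 0 and 0 of 10. In the list for platinum and copper handling 7 genes were tested and none had an unadjusted p under 0.05. The metallothioneins Mt1 and Mt2, which bind platinum as well as zinc, stood at 0.16 (SE 0.16) and 0.35 (SE 0.21), and the copper pumps Atp7a and Atp7b at -0.23 (SE 0.36) and -0.28 (SE 0.32). Of the 25 BCL2 family and caspase genes 2 were lower, Pmaip1 and Bcl2l1, the survival factor BCL-XL at -0.51 (SE 0.17).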
